A study of Caenorhabditis elegans with 30 samples.

Results

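Of the 99764 windows of 1 kb in the genome that were not marked as misannotated, 1159 (1.16%) carried H3K9me3 and elongating polymerase together in wild-type animals. They were chosen by their levels in WT. Their mean H3K9me3 over the 3 WT libraries was at or above the 90th percentile of all windows (15.2 RPKM, reads per kilobase of window relative to the depth of the library), and their mean Pol II over the 2 WT libraries was at or above the 75th percentile (11.8 RPKM). Windows that the authors had marked as native targets of germline nuclear RNAi, GRH (germline nuclear RNAi-dependent heterochromatin) or GRTS (germline nuclear RNAi-dependent transcriptional silencing), were left out. There were 1253 windows past both limits, of which 94 were GRH or GRTS. Only 12.5% of the windows past the H3K9me3 limit also passed the Pol II limit, which 25.01% of all windows passed.

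H3K9me3, the trimethylation of histone H3 at lysine 9, is a mark of heterochromatin, which is generally compact and poorly transcribed. In C. elegans it forms broad domains on the arms of the autosomes, while the chromosome centers hold most of the housekeeping genes. The histone methyltransferases (HMTs) SET-32, MET-2 and SET-25 contribute to methylation of this lysine, and HRDE-1 is a nuclear Argonaute protein of the germline that, guided by siRNAs, directs H3K9me3 and transcriptional silencing to its targets. Phosphorylation at serine 2 of the repeats in the C-terminal domain of RNA polymerase II marks polymerase that is elongating through a gene, so its ChIP-seq signal (Pol II below) reads ongoing transcription. A window high in both marks may hold transcribed and silent DNA side by side, the 2 states in different cells of the animal, or both marks on the same DNA, and ChIP-seq of whole animals cannot tell these apart.

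Chromatin came from whole young adult animals of 5 strains grown at 19 °C. The strain called the triple mutant here, met-2 set-25;set-32, carries the alleles met-2(n4256), set-25(ok5021) and also set-32(ok1457). The others are met-2 set-25, with the first 2 of these alleles, set-32, with the last one, hrde-1, whose allele the labels write as tm-1200, and WT (N2). Animals for H3K9me3 were fed on OP50 bacteria, or on bacteria with a gfp or an oma-1 dsRNA (gfp RNAi, oma-1 RNAi), and those for Pol II on the RNAi bacteria only, with 1 library for each strain, mark and feeding (15 H3K9me3 and 10 Pol II libraries). The feedings therefore serve as the samples of a strain (n = 3 for H3K9me3, n = 2 for Pol II). Every p-value rests on the scatter left between libraries after strain and feeding are fitted. For H3K9me3 that scatter is shared by windows of similar level, and for Pol II each window is moved toward such a shared value. A p-value therefore does not measure the spread between feedings at its own window alone. Judged by the size of the smallest RPKM steps, the H3K9me3 libraries held 2446000 to 7228000 aligned reads and the Pol II libraries 3816000 to 6782000, or a median of 26.0 to 110.0 and 65.7 to 127 reads in a window with both marks.

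Since WT libraries chose the windows, a difference from WT at these windows is in part a result of the choice and is given only as a description. The tests compare the mutants with hrde-1, which keeps the 3 HMTs and whose libraries had no part in the choice, and the 4 mutant strains were fitted together without WT. A window was called where limma gave a Benjamini-Hochberg adjusted p under 0.05 over all 99742 windows tested and the change was at least 2-fold on the log2(RPKM + 1) scale. All 1159 windows passed the filter on low values. They are set beside 8501 windows past the same H3K9me3 limit with lower Pol II (H3K9me3-rich windows below) and 23674 windows past the Pol II limit with lower H3K9me3 (Pol II-rich windows). Each window is named by its chromosome and the kb at which it starts in WS190 (ce6), so that I 14883 is the window of 1 kb that starts at 14883 kb of chromosome I. No annotation of this build was used, so no genes are named at the windows.

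Over the 1159 windows, WT H3K9me3 had a median of 22.4 RPKM and ranged between 15.2 and 1712 RPKM, and WT Pol II had a median of 17.9 RPKM and ranged between 11.8 and 269 RPKM. At the H3K9me3 limit, IV 2330 (15.22 RPKM) and IV 9764 (15.22 RPKM) lay just inside and X 12284 and I 7689 (15.21 RPKM each) just outside. At the Pol II limit, II 1935 (11.76 RPKM) and III 1924 (11.765 RPKM) lay just inside and I 12572 (11.755 RPKM) and II 10938 (11.75 RPKM) just outside. The limits thus fall in a continuous range of levels, and 699 of the 1159 windows (60.3%) were past the corresponding limit of every WT library taken alone. Among the H3K9me3 libraries, 90.1% of the windows were past the limit of the WT library on OP50, 82.9% on gfp RNAi and 93.2% on oma-1 RNAi. The WT library on gfp RNAi had the weakest enrichment, with a median of 18.2 RPKM over the windows, against 25.8 RPKM on OP50 and 23.7 RPKM on oma-1 RNAi.

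The windows lay along the arms, but less exclusively so than other H3K9me3-rich windows. Counting from the middle of a chromosome, 74.2% of them (860) were more than 50% of the way to an end, against 90.5% of the H3K9me3-rich and 42.4% of the Pol II-rich windows. Every chromosome held some. Chromosome I had the most, 301 windows or 2.01% of its length, followed by V (238), III (180), II (169), IV (165) and X (106, 0.602%). On chromosome III they made up 18.0% of the windows past the H3K9me3 limit, and on chromosome V 7.51%.

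**Figure D1:**
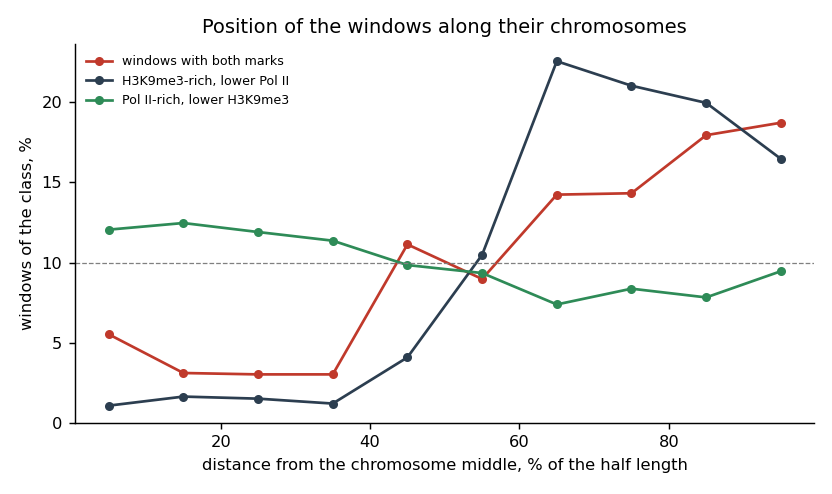
Position along the chromosome (x axis, distance from the middle as % of the length from the middle to an end, in steps of 10%) of the windows with both marks, the H3K9me3-rich and the Pol II-rich windows (y axis, % of the windows of each class; the dashed line at 10% marks an even spread). The windows with both marks follow the H3K9me3-rich windows outward, but 11.1% of them lie between 40% and 50% of the way and 5.52% in the innermost step.

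Many of the windows stood in short stretches. They formed 550 runs of adjacent windows, of which 299 were a lone window (25.8% of the windows), 111 were 2 windows long and 140 were 3 or longer, and the last held 638 windows (55.0%). Of the windows next to them, 52.5% were of the same kind, 15.1% were H3K9me3-rich and 20.6% Pol II-rich. The longest runs were I 14880 to 14895 kb and II 14322 to 14337 kb, each of 15 windows. Runs of 13 windows lay at I 15060 to 15073 kb, the right end of chromosome I, and at V 10717 to 10730 kb, and 8 runs had 10 or more windows.

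Since the windows were chosen for high levels of both marks, a peak at the window is in part a result of the choice. Both marks fell off from it over several kb on each side. In hrde-1, median H3K9me3 was 20.9 ± 1.3 RPKM at the window (SD, n = 3 feedings), 17.9 and 18.2 RPKM 1 kb away to the left and right, 11.2 RPKM 4 kb away on each side and 8.68 and 9.05 RPKM 10 kb away, close to the 8.14 RPKM of all windows. In the triple mutant it was 10.1 ± 0.25 RPKM at the window and 8.51 and 8.56 RPKM 10 kb away, under the 9.66 RPKM of all windows of that strain. Pol II had the same shape in every strain, with 18.3 ± 0.56 RPKM at the window in the triple mutant and 17.4 ± 0.27 RPKM in hrde-1 (SD, n = 2 feedings). In hrde-1, Pol II was still 8.75 and 7.75 RPKM 10 kb away to the left and right, above the 4.33 RPKM of all windows. Within 3 kb the 2 marks were not mostly arranged on opposite sides in hrde-1. With each mark averaged over the 3 kb on each side, 524 of 1156 windows (45.3%) had the lower H3K9me3 on the side with the higher Pol II. Farther out the medians had the other order. At 7 kb, median H3K9me3 in hrde-1 was 8.95 RPKM on the side with the higher Pol II and 10.0 RPKM on the other.

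**Figure D2:**
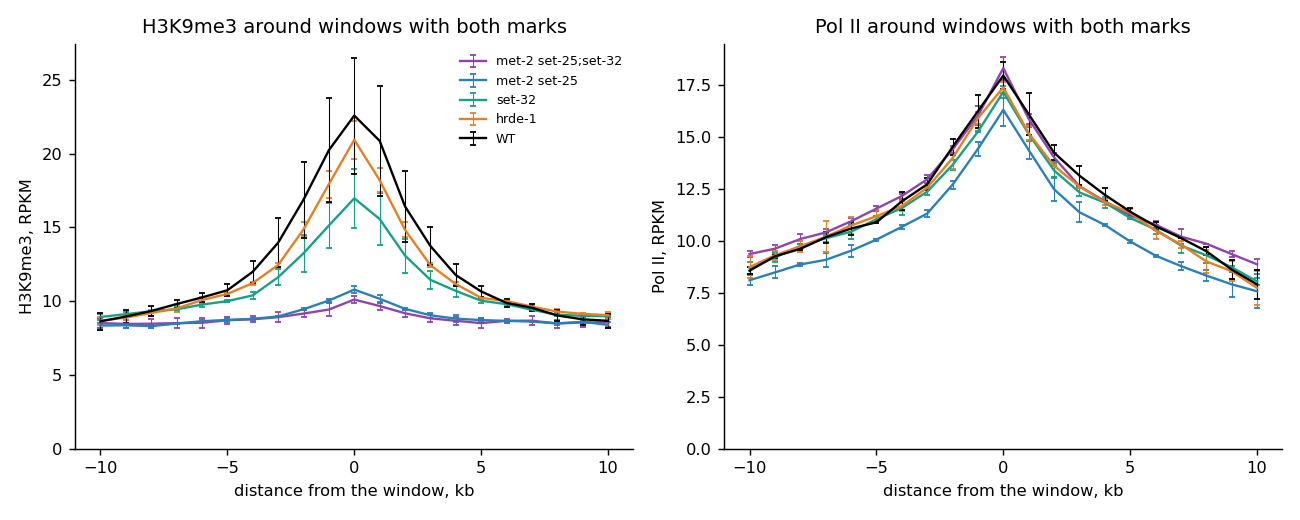
Median H3K9me3 (left) and Pol II (right) in RPKM around the windows with both marks, by distance in kb from the window (0), for the triple mutant, met-2 set-25, set-32, hrde-1 and WT; bars are the SD over feedings. The H3K9me3 peak of hrde-1 and WT is nearly flat in the triple mutant and met-2 set-25 and intermediate in set-32, while the Pol II peaks of the 5 strains lie between 16.3 and 18.3 RPKM at the window.

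H3K9me3 at the windows was lowest in the triple mutant and met-2 set-25. The median over the windows was 9.85, 10.1 and 10.3 RPKM in the triple mutant on OP50, gfp RNAi and oma-1 RNAi, and 10.6, 10.7 and 11.1 RPKM in met-2 set-25. It was 15.5, 16.2 and 19.3 RPKM in set-32, against 20.6, 19.9 and 22.4 RPKM in hrde-1. The 6 libraries of the triple mutant and met-2 set-25 did not overlap with those of set-32, and the 3 set-32 libraries lay below the 3 hrde-1 libraries. In the triple mutant, median H3K9me3 of the windows was 1.05 ± 0.027 times the median of all windows of the same library. For hrde-1 this ratio was 2.58 ± 0.30 (SD, n = 3). The median of all windows was itself higher in the triple mutant, 9.66 RPKM against 8.14 RPKM in hrde-1. Relative to windows low in H3K9me3 (5th to 25th percentile of WT on OP50), the triple mutant kept a ratio of 1.69 ± 0.10. The corresponding ratios were 2.21 ± 0.40 for met-2 set-25 and 5.16 ± 0.52 for hrde-1. Of the windows, 18.6% to 24.6% (triple mutant), 21.8% to 26.1% (met-2 set-25) and 55.4% to 69.5% (set-32) were still past the 90th percentile of their own library, against 73.9% to 76.3% in hrde-1. In whole animals, fewer cells with the mark and less of the mark in each cell cannot be told apart.

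**Figure D3:**
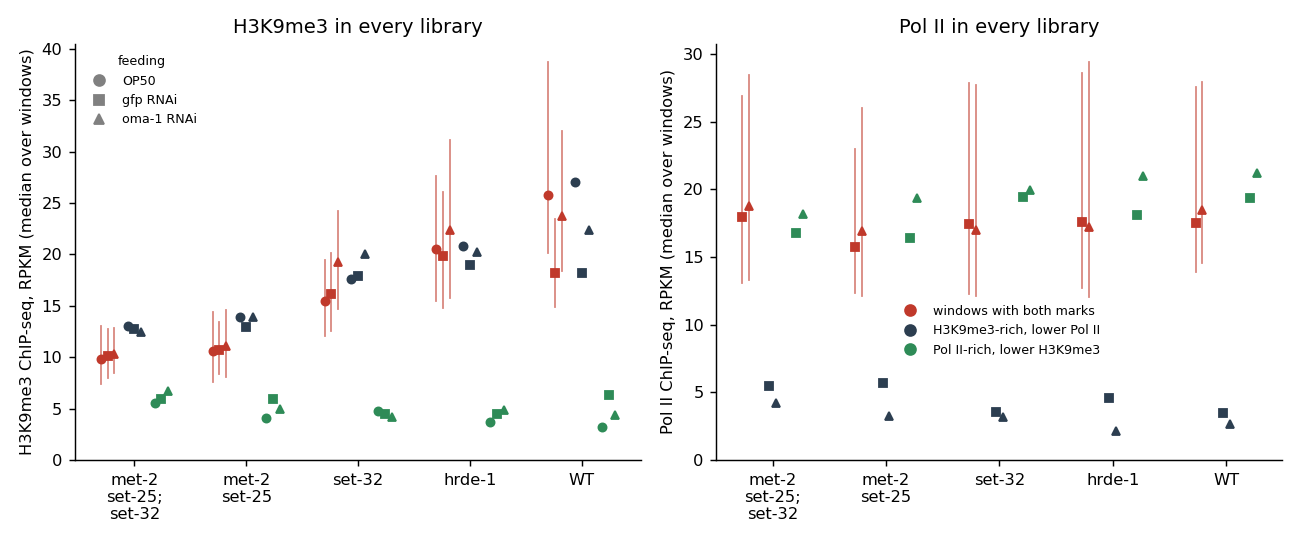
Median H3K9me3 (left) and Pol II (right) in RPKM over the windows with both marks, the H3K9me3-rich and the Pol II-rich windows, in each library of the triple mutant, met-2 set-25, set-32, hrde-1 and WT; symbols give the feeding and the vertical lines the 25th to 75th percentile of the windows with both marks. H3K9me3 of the windows with both marks is 9.85 to 11.1 RPKM in the triple mutant and met-2 set-25 against 19.9 to 22.4 RPKM in hrde-1, while their Pol II is 15.8 to 18.7 RPKM in every library.

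The triple mutant had lower H3K9me3 than hrde-1 at 880 of the 1159 windows (75.9%), against 8.91% of all windows tested, and higher at 0 (0 also at an unadjusted p under 0.05 in limma; 0.0301% of all windows were higher). The median log2 change over the windows was -1.42 (10th to 90th percentile -2.35 to -0.68) against -0.27 over all windows. In met-2 set-25, 650 windows (56.1%) were lower than in hrde-1, against 5.48% of all windows, with a median log2 change of -1.10 against -0.05. In set-32, 104 windows (8.97%) were lower, against 0.482% of all windows, with a median of -0.38 against -0.01. None of the windows was higher in met-2 set-25 or set-32 (0.119% and 0.0682% of all windows, and 9 and 25 of the windows at an unadjusted p under 0.05). All windows called lower were so in each of the 3 feedings. The 3 comparisons share the hrde-1 libraries. The deposited library names carry a prefix that the labels do not explain, SG0315 for H3K9me3 of met-2 set-25, hrde-1 and WT, SG0615 for set-32, and SG0615 (OP50) or SG1115 (both RNAi feedings) for the triple mutant. Prefix and strain therefore cannot be told apart where the triple mutant or set-32 is compared with hrde-1, or the triple mutant with met-2 set-25, while met-2 set-25 and hrde-1 have the same prefix. In the self-test on simulated data, the fit of met-2 set-25 against hrde-1 recovered 52% of log2 changes of -1 and 100% of log2 changes of -1.5 in H3K9me3. Changes of -1 lie on the 2-fold limit of a call, so their share reflects that limit as well as the fit. The simulated scatter was independent between libraries, with no effect of strain or feeding apart from the changes put in.

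The windows were chosen for high H3K9me3, so the shares are also set beside those of the H3K9me3-rich windows with lower Pol II. Of the H3K9me3-rich windows, 63.5% were lower in the triple mutant than in hrde-1, 34.2% in met-2 set-25 and 0.706% in set-32. The gap was widest among windows of moderate H3K9me3. Between the 90th and 95th WT percentile, 67.7% of 594 windows with both marks were lower in the triple mutant, against 38.7% of 4316 H3K9me3-rich windows, and in met-2 set-25 the shares were 47.1% and 9.38%. Between the 95th and 99th percentile the shares were 81.0% of 410 and 87.2% of 3429 windows (triple mutant) and 59.0% and 52.7% (met-2 set-25). The H3K9me3-rich windows were thus already ahead there in the triple mutant. Above the 99th percentile they were ahead in both strains, with 94.2% of 155 windows with both marks and 98.5% of 746 H3K9me3-rich windows in the triple mutant, and 82.6% and 93.8% in met-2 set-25. These shares stand side by side as a description, since the classes were made from the WT levels of the same windows and the difference between them was not tested.

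**Figure D4:**
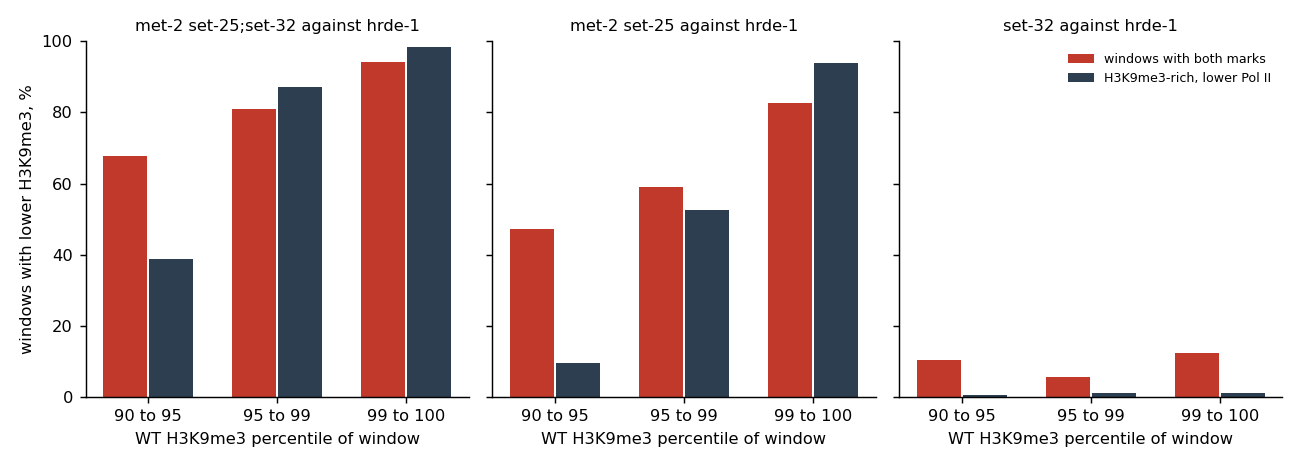
Share (%) of windows whose H3K9me3 was lower than in hrde-1 (limma, adjusted p under 0.05 and at least 2-fold) in the triple mutant, met-2 set-25 and set-32, by the WT H3K9me3 percentile of the window, for windows with both marks and H3K9me3-rich windows. Between the 90th and 95th percentile the bars are 67.7% against 38.7% in the triple mutant and 47.1% against 9.38% in met-2 set-25. The H3K9me3-rich windows are ahead above the 95th percentile in the triple mutant and above the 99th in met-2 set-25. In set-32 the windows with both marks are ahead at each level.

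Within the windows, the share with lower H3K9me3 in the triple mutant was similar across Pol II levels. It was 76.2% between the 75th and 90th WT percentile of Pol II (778 windows), 74.8% between the 90th and 95th (159) and 75.6% above the 95th (221). In set-32 the shares were 7.58%, 5.66% and 16.3%. By length of run, 57.5% of lone windows, 79.7% of windows in runs of 2 and 83.2% of windows in longer runs were lower in the triple mutant than in hrde-1, and the difference between these shares was not tested. By chromosome the share ran between 65.7% on II and 85.8% on X in the triple mutant, against 8.48% and 5.91% of all windows of these chromosomes. In set-32 it ran between 0% on X (0 of 106) and 14.0% on I, against 0.148% and 0.974%.

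The windows with the largest falls show the pattern in single libraries. At I 14883, inside one of the longest runs, H3K9me3 was 3.34, 8.03 and 8.50 RPKM in the triple mutant (OP50, gfp RNAi, oma-1 RNAi), 3.27, 8.62 and 4.24 RPKM in met-2 set-25 and 22.0, 16.8 and 31.8 RPKM in set-32, against 50.2, 42.1 and 55.8 RPKM in hrde-1 and 38.1, 27.0 and 31.3 RPKM in WT. The triple mutant and met-2 set-25 overlapped with each other, all libraries of the 3 HMT mutants were below those of hrde-1, and the triple mutant was lower than hrde-1 by a log2 change of -3.31 ± 0.23 (SE, limma adjusted p 2.7e-42). Its Pol II was 23.6 and 25.2 RPKM in the triple mutant against 16.3 and 12.1 RPKM in hrde-1 (gfp RNAi, oma-1 RNAi), which was not called. Over the 15 windows of this run, median H3K9me3 was 10.3 to 11.8 RPKM in the triple mutant and 31.0 to 45.8 RPKM in set-32, against 58.4 to 72.5 RPKM in hrde-1, while median Pol II was 23.3 and 23.4 RPKM in the triple mutant against 15.5 and 17.7 RPKM in hrde-1.

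Large falls were also seen at other windows. At V 19933, H3K9me3 was 7.43, 7.75 and 8.50 RPKM in the triple mutant and 3.27, 7.26 and 6.36 RPKM in met-2 set-25, against 60.0, 53.3 and 56.9 RPKM in hrde-1 (log2 change -3.21 and -3.45, SE 0.23 each). III 1921 had 2.97, 3.74 and 5.24 RPKM in the triple mutant against 32.3, 35.4 and 41.0 RPKM in hrde-1 (-3.40 ± 0.23, limma adjusted p 3.6e-45). I 10757 had 2.04, 6.13 and 5.18 RPKM in met-2 set-25 against 46.0, 30.4 and 46.7 RPKM in hrde-1 (-3.29 ± 0.23, limma adjusted p 3.2e-42). In each of these windows the mutant libraries were all below the hrde-1 libraries. Their WT levels, a mean of 17.5 to 37.5 RPKM, were below those of hrde-1, so a comparison with WT would give smaller falls.

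In set-32 alone, few windows fell by 2-fold. V 1203 had 27.1, 23.0 and 28.6 RPKM H3K9me3 in set-32 and 22.5, 20.1 and 18.5 RPKM in the triple mutant, against 89.1, 76.3 and 105 RPKM in hrde-1. The set-32 libraries lay between those of the triple mutant and hrde-1 there, and the change of set-32 from hrde-1 was -1.84 ± 0.23 (limma adjusted p 5.1e-12). WT was uneven at this window, with 109.8 RPKM on OP50 but 31.2 and 43.6 RPKM on gfp RNAi and oma-1 RNAi. Over all 1159 windows the median log2 change of set-32 was -0.80 on OP50, -0.30 on gfp RNAi and -0.13 on oma-1 RNAi, so the feedings differed widely, and the share of windows called was 4.14% without the set-32 library on OP50, 16.3% without the set-32 library on oma-1 RNAi and 5.26% without the hrde-1 library on OP50.

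At V 18048 and V 18057, the windows with the largest falls in set-32, 1 library of the triple mutant was close to those of set-32. All 3 set-32 H3K9me3 libraries and that of the triple mutant on OP50 share the prefix SG0615, and at 6 windows of the genome, all between V 18048 and 18062 kb, these 4 libraries, scaled as in the fit, were at least 2-fold below every other H3K9me3 library. At V 18048, H3K9me3 was 2.79 RPKM in the triple mutant on OP50 but 15.3 and 11.6 RPKM on gfp RNAi and oma-1 RNAi, and 3.68, 1.88 and 1.72 RPKM in set-32, against 19.7, 22.2 and 18.0 RPKM in hrde-1. For the set-32 libraries prefix and strain cannot be told apart. These windows are also the only 2 where the triple mutant was called higher than set-32 (0.173% of the windows, against 0.013% of all windows).

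Between the triple mutant and met-2 set-25, few windows differed past the threshold. Of the 1159 windows, 10 (0.863%) were lower in the triple mutant than in met-2 set-25, against 0.0832% of all windows, with a median log2 change of -0.31 against -0.23 over all windows. At an unadjusted p under 0.05 in limma, 315 windows were lower and 7 higher, and 0 were called higher (0.00201% of all windows). The clearest were X 10, with 11.4, 14.0 and 10.6 RPKM in the triple mutant against 28.1, 20.7 and 22.2 RPKM in met-2 set-25 (-1.18 ± 0.23, limma adjusted p 0.0011), and III 10445, with 4.54, 6.93 and 6.88 RPKM against 16, 12.2 and 10.1 RPKM (-1.19 ± 0.23, limma adjusted p 0.00074). The groups did not overlap at either window. V 18048 was also called (-1.10 ± 0.23, limma adjusted p 0.0031), but its groups overlapped. It had 2.79 RPKM in the triple mutant on OP50, the library with prefix SG0615, and 15.3 and 11.6 RPKM on gfp RNAi and oma-1 RNAi. The met-2 set-25 libraries had 13.2, 15.6 and 18.6 RPKM there. The count depends on single libraries and is 0 without the OP50 library of either strain, 0.173% without the oma-1 RNAi library of either and 2.67% without the met-2 set-25 library on gfp RNAi.

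In the triple mutant, 649 windows (56.0%) were lower than in set-32, against 4.97% of all windows and 41.4% of the H3K9me3-rich windows. The median log2 change was -1.06 against -0.28 over all windows. On OP50, where both libraries have the prefix SG0615, the median change over the windows was -0.79, and it was -1.01 on gfp RNAi and -1.41 on oma-1 RNAi. I 2058 had 6.87, 10.4 and 11.1 RPKM in the triple mutant against 34.2, 31.5 and 53.2 RPKM in set-32 (-2.37 ± 0.23, limma adjusted p 1.6e-19). IV 2911 had 6.44, 8.05 and 8.31 RPKM against 29.3, 27.4 and 38.6 RPKM (-2.33 ± 0.23), and III 1090 had 5.96, 8.20 and 7.88 RPKM against 27.0, 24.1 and 32.5 RPKM (-2.20 ± 0.23). All triple mutant libraries were below all set-32 libraries at these 3 windows.

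The log2 changes above are relative to windows without H3K9me3, since each H3K9me3 library was scaled to its median over them. With depth normalization alone, the median over all windows moved to 0.23 for the triple mutant against hrde-1, 0.19 for met-2 set-25, 0.08 for set-32 and 0.12 for the triple mutant against set-32. The share of the 1159 windows called lower was then 45.0% in the triple mutant, 40.6% in met-2 set-25 and 4.23% in set-32 against hrde-1. Of all windows tested, 3.15%, 3.12% and 0.272% were called lower, in the same order. Each scaling multiplies a whole library by a single factor, so the change relative to the median of all windows can hardly differ between them. It was -1.15 and -1.13 (triple mutant), -1.05 and -1.04 (met-2 set-25) and -0.37 and -0.36 (set-32), and this likeness is no separate support.

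Pol II at the windows differed little between strains. The median over the windows was 17.9 and 18.7 RPKM in the triple mutant on gfp RNAi and oma-1 RNAi, 15.8 and 16.9 RPKM in met-2 set-25 and 17.4 and 17.0 RPKM in set-32, against 17.6 and 17.2 RPKM in hrde-1. Among the mutants, the triple mutant libraries were the highest and the met-2 set-25 libraries the lowest, and set-32 and hrde-1 overlapped. The H3K9me3-rich windows had medians between 2.10 and 5.68 RPKM. In the triple mutant, 84.6% and 85.2% of the windows were past the 75th Pol II percentile of their own library, against 84.8% and 79.9% in hrde-1.

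Few of the windows were called in Pol II, and in both directions. The shares called in either direction were 7.25% (triple mutant), 8.71% (met-2 set-25) and 10.9% (set-32). Among the Pol II-rich windows they were smaller, 4.68%, 0.701% and 5.23%, and the difference was not tested. In the triple mutant 35 windows (3.02%) were lower and 49 (4.23%) higher than in hrde-1, against 1.32% and 2.74% of all windows, and the median log2 change was 0.05 against 0.26 over all windows. In met-2 set-25, 85 (7.33%) were lower and 16 (1.38%) higher, against 0.638% and 0.6% of all windows, with a median of 0.02 against 0.18. In set-32, 72 (6.21%) were lower and 54 (4.66%) higher, against 1.85% and 1.22% (10.9% in either direction, against 3.07%), with a median of 0.00 against 0.01. When libraries were scaled to the median of all windows instead, the split moved to 96 lower (8.28%) and 21 higher (1.81%) in the triple mutant, against 4.07% and 1.03% of all windows. In met-2 set-25, 110 were then lower (9.49%) and 2 higher (0.173%), against 1.00% and 0.339%. In set-32, 64 were lower (5.52%) and 47 higher (4.06%), against 2.01% and 1.22%. The median change in the triple mutant was then -0.34 against -0.07 over all windows, so the direction of the balance in this strain depends on the scaling. It also depends on single libraries, with 53 lower and 34 higher without the hrde-1 library on oma-1 RNAi and 28 lower and 22 higher without the triple mutant library on oma-1 RNAi. In met-2 set-25 the split was 99 lower and 71 higher without the hrde-1 library on gfp RNAi, 93 lower and 1 higher without that on oma-1 RNAi and 69 lower and 0 higher without the met-2 set-25 library on oma-1 RNAi. The splits with a library left out have no share over all windows beside them. In the self-test, the Pol II fit of met-2 set-25 against hrde-1 recovered 38% of log2 changes of -1, which lie on the 2-fold limit, and 94% of log2 changes of -1.5. With all libraries, the share of windows called in either direction was 7.25% in the triple mutant, against 4.06% of all windows. In met-2 set-25 it was 8.71%, against 1.24% of all windows. Both shares moved when a single library was left out, as given below. The median log2 change then ran between 0.01 and 0.09 in the triple mutant and between -0.02 and 0.05 in met-2 set-25.

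Most windows with lower H3K9me3 had no call in Pol II. This also held for all windows tested, of which 4.06% (triple mutant), 1.24% (met-2 set-25) and 3.07% (set-32) were called in Pol II. Of the 880 windows with lower H3K9me3 in the triple mutant than in hrde-1, 814 (92.5%) had no Pol II call, 24 were lower and 42 higher in Pol II. Among the 279 other windows, 261 (93.5%) had no Pol II call. In met-2 set-25, 619 of 650 windows with lower H3K9me3 (95.2%) had no Pol II call, 26 were lower and 5 higher, and 439 of the 509 other windows (86.2%) had none. In set-32 the counts were 100 of 104 and 933 of 1055.

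**Figure D5:**
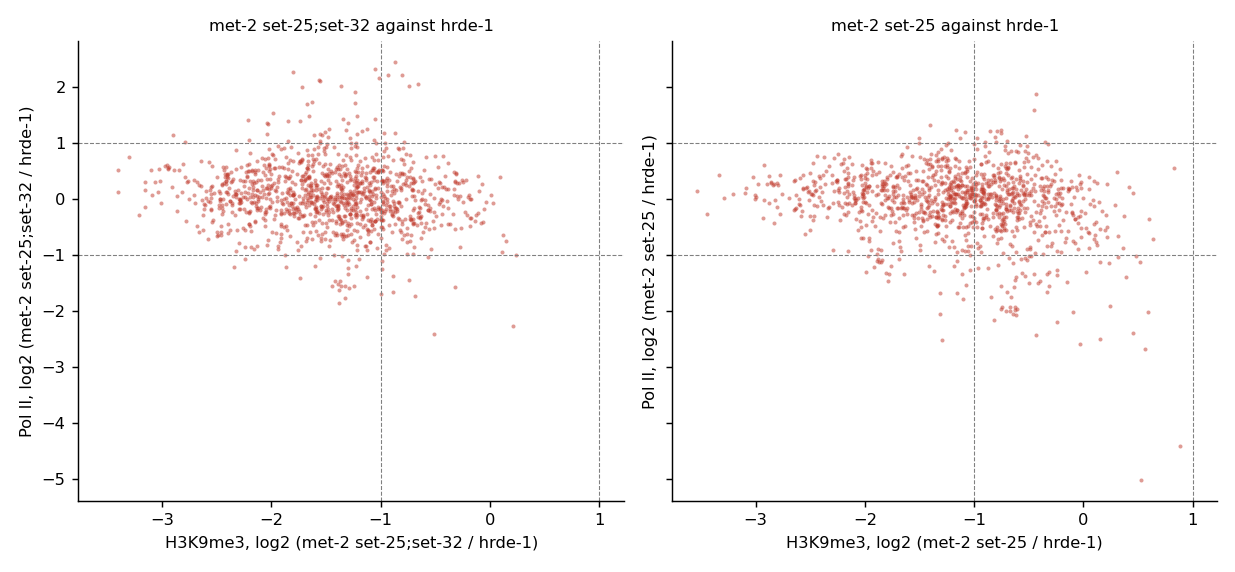
Change in H3K9me3 (x axis) and in Pol II (y axis), both as log2 of the mutant over hrde-1 from the limma fits, of each of the 1159 windows in the triple mutant (left) and met-2 set-25 (right); dashed lines mark 2-fold. The cloud stretches left along the H3K9me3 axis with a median of -1.42 and -1.10 and stays near 0 on the Pol II axis, and the lowest point of the right panel is II 10933, with a Pol II log2 change of -5.01 in met-2 set-25.

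At some of the windows Pol II was low in 1 strain. II 10933 had Pol II of 8.22 and 5.37 RPKM in met-2 set-25 (gfp RNAi, oma-1 RNAi), where the triple mutant had 183 and 207 RPKM, set-32 362 and 331 RPKM, hrde-1 258 and 234 RPKM and WT 144 and 179.6 RPKM. Pol II was nearly absent in met-2 set-25 alone (log2 change from hrde-1 -5.01 ± 0.25, limma adjusted p 5.6e-16), although the triple mutant carries the same 2 alleles. H3K9me3 there was 16.1, 16.2 and 18.6 RPKM in met-2 set-25, higher than the 7.71, 10.5 and 10.5 RPKM of hrde-1 but not called. V 19051 was the corresponding case in set-32, with Pol II of 4.02 and 5.10 RPKM against 41.2 and 30.4 RPKM in hrde-1 (-2.72 ± 0.22, limma adjusted p 4.7e-11), and 45.5 and 60.0 RPKM in the triple mutant. Windows were also counted where all libraries of 1 strain were at least 2-fold below every library of the other 4. By this count met-2 set-25 was set apart by low Pol II at 4 windows in 2 runs (0.345%, against 0.0201% of all and 0.0507% of Pol II-rich windows). For set-32 it was 8 windows in 5 runs (0.690%, against 0.227% of all and 0.418% of Pol II-rich windows). The other 4 strains include WT, whose Pol II chose the windows, so the choice favors such cases and the counts are a description. By high Pol II, hrde-1 was set apart at 2 windows (0.173%, against 0.168% of all windows).

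II 582 and V 11483 were lower in Pol II than hrde-1 in all 3 HMT mutants, and hrde-1 was above WT there. II 582 had 30.6 and 36.3 RPKM in the triple mutant, 35.6 and 44.7 RPKM in met-2 set-25 and 53.4 and 55.7 RPKM in set-32, against 123 and 216 RPKM in hrde-1 and 59.7 and 45.0 RPKM in WT. H3K9me3 at II 582 was 14.1, 10.7 and 9.99 RPKM in the triple mutant against 5.57, 7.05 and 7.36 RPKM in hrde-1 and 28.3, 18.4 and 25.1 RPKM in WT, so hrde-1 had the lowest H3K9me3 and the highest Pol II of the 5 strains. At V 11483, Pol II was 5.60 and 10.9 RPKM in the triple mutant, 13.7 and 18.8 RPKM in met-2 set-25 and 8.78 and 3.79 RPKM in set-32, against 31.99 and 66.0 RPKM in hrde-1 and 10.0 and 17.4 RPKM in WT. H3K9me3 of hrde-1 at V 11483, 11.9, 12.5 and 7.72 RPKM, overlapped with the 11.3, 9.64 and 10.5 RPKM of the triple mutant. At both windows Pol II of the HMT mutants was closer to that of WT than to that of hrde-1.

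On chromosome X the calls were mostly the other way, with 20.8% of the 106 windows higher in the triple mutant and 18.9% higher in set-32 than in hrde-1, against 3.10% and 1.25% of all windows of X. In met-2 set-25, 3.77% were higher, against 0.432% of all windows of X. X 152 had Pol II of 19.9 and 20.9 RPKM in the triple mutant, 7.61 and 11.6 RPKM in met-2 set-25 and 35.8 and 25.6 RPKM in set-32, against 4.67 and 2.49 RPKM in hrde-1 and 26.0 and 25.01 RPKM in WT. It was the low level of hrde-1 that set it apart (log2 change 2.26 ± 0.26 in the triple mutant and 2.81 ± 0.26 in set-32, limma adjusted p 2.1e-07 and 7.6e-10). X 52 and X 55 had the same order, with hrde-1 at 4.08 to 4.53 and 1.43 to 3.40 RPKM and WT at 22.0 to 23.7 and 10.8 to 15.1 RPKM. The Pol II libraries of the triple mutant and set-32 share the prefix SG1115 and those of met-2 set-25, hrde-1 and WT the prefix SG0315, so for the first 2 strains prefix and strain cannot be told apart.

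IV 1722 and V 17725 were higher in Pol II than hrde-1 in all 3 HMT mutants. At IV 1722, Pol II was 62.4 and 81.4 RPKM in the triple mutant, 50.8 and 45.2 RPKM in met-2 set-25 and 35.9 and 46.5 RPKM in set-32, against 28.6 and 4.98 RPKM in hrde-1 and 29.7 and 7.53 RPKM in WT (log2 change 2.44 ± 0.33 in the triple mutant, limma adjusted p 5.8e-06). In hrde-1 and WT the oma-1 RNAi library was far below the gfp RNAi library, while in each of the 3 HMT mutants both libraries were above every hrde-1 and WT library. Its H3K9me3 was 15.7 to 23.1 RPKM in the triple mutant and 22.7 to 24.3 RPKM in hrde-1, which was not called. At V 17725, Pol II was 45.8 and 50.7 RPKM in the triple mutant, 21.1 and 23.4 RPKM in met-2 set-25 and 15.4 and 26.3 RPKM in set-32, against 14.6 and 5.24 RPKM in hrde-1 and 22.6 and 10.4 RPKM in WT, so met-2 set-25 and set-32 overlapped with WT there.

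Chromosome II held the most windows with lower Pol II in met-2 set-25, 33 of its 169 (19.5%), against 0.939% of all windows of that chromosome and 7.33% of the 1159 windows. Pol II in met-2 set-25 was also lower over the run of 10 windows at III 6566 to 6576 kb, chosen here after its values were seen. Median Pol II of this run was 19.96 and 9.86 RPKM in the triple mutant, 11.1 and 9.62 RPKM in met-2 set-25 and 43.5 and 37.0 RPKM in set-32, against 47.7 and 40.8 RPKM in hrde-1 and 28.2 and 39.2 RPKM in WT. Its H3K9me3 was 17.5 to 18.8 RPKM in the triple mutant and 21.9 to 26.7 RPKM in met-2 set-25, against 32.2 to 35.0 RPKM in hrde-1. In this run both marks were therefore lower than in hrde-1 in the 2 strains without MET-2 and SET-25. H3K9me3 of met-2 set-25 overlapped there with the 20.2 to 25.6 RPKM of set-32 and the 22.2 to 30.4 RPKM of WT. At III 6572 the Pol II change from hrde-1 was -1.86 ± 0.23 (triple mutant) and -2.15 ± 0.23 (met-2 set-25, limma adjusted p 9.7e-07 and 3.6e-08). The H3K9me3 change of met-2 set-25 at this window, -0.82 ± 0.23, was not called.

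Ranked by the smaller of their WT percentiles in the 2 marks, the windows highest in both were I 15066, V 19050, IV 2996, III 8858, III 1089 and V 1205. At III 1089, Pol II was 63.6 and 70.7 RPKM in the triple mutant against 60.3 and 61.9 RPKM in hrde-1 and 59.2 and 87.4 RPKM in WT. Its H3K9me3 was 6.83, 8.89 and 7.89 RPKM in the triple mutant, 7.90, 10.5 and 16.2 RPKM in met-2 set-25 and 28.4, 25.8 and 34.5 RPKM in set-32, against 36.2, 29.3 and 30.2 RPKM in hrde-1 and 47.2, 29.1 and 37.5 RPKM in WT. The triple mutant libraries were below those of hrde-1 (-2.40 ± 0.23, limma adjusted p 1.7e-22) and overlapped with met-2 set-25, and set-32 overlapped with hrde-1. V 1205 had H3K9me3 of 10.2, 12.5 and 12.8 RPKM in the triple mutant and 26.4, 26.2 and 37.6 RPKM in set-32, against 44.7, 44.3 and 53.9 RPKM in hrde-1.

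I 15066 was the window with the highest WT H3K9me3, and it lies in the run at the right end of chromosome I, where the ribosomal RNA genes of C. elegans stand in tandem copies. H3K9me3 was 988, 654 and 1085 RPKM in the triple mutant and 862, 986 and 1439.9 RPKM in set-32, against 1886, 1601 and 3349 RPKM in hrde-1 and 2735, 1238 and 1163 RPKM in WT. Pol II was 582 and 491 RPKM in the triple mutant and 310.3 and 269 RPKM in set-32, against 529 and 218 RPKM in hrde-1 and 222 and 196 RPKM in WT. Reads from many copies of a repeat fall on few windows here and no input was used, so copy number and level per copy cannot be told apart. Without the 13 windows of this run, the shares of windows called changed little (75.7% in the triple mutant, 55.6% in met-2 set-25 and 8.12% in set-32 for H3K9me3).

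The windows that ranked highest in H3K9me3 in the triple mutant were I 15065, in the same run, II 7447 and V 10449. At II 7447, H3K9me3 was 29.6, 34.4 and 35.8 RPKM in the triple mutant, 35.8, 33.0 and 33.2 RPKM in met-2 set-25 and 31.0, 32.5 and 31.2 RPKM in set-32, against 41.0, 37.3 and 32.9 RPKM in hrde-1 and 26.6, 27.8 and 31.8 RPKM in WT. At V 10449 it was 33.6, 28.7 and 31.2 RPKM in the triple mutant against 26.7, 30.0 and 27.0 RPKM in hrde-1 and 24.9, 30.5 and 26.6 RPKM in WT. The triple mutant and hrde-1 overlapped at both windows, and no comparison called them. Both are lone windows, and Pol II at II 7447 was 14.3 and 9.63 RPKM in the triple mutant against 19.0 and 13.8 RPKM in hrde-1.

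The WT feedings disagreed at some of the windows. At 15 of them, in 5 runs, H3K9me3 of both WT libraries on RNAi bacteria (22.7 to 83.5 RPKM) was at least 2-fold above that of WT on OP50 (7.68 to 19.1 RPKM), and 13 of the 15 were below the limit of the OP50 library itself. In hrde-1 these windows had 5.85 to 23.2 RPKM in the 3 feedings. IV 2996, among the windows highest in both marks, was one of them, with H3K9me3 of 4.46, 4.70 and 7.44 RPKM in the triple mutant and 16.1, 20.2 and 23.1 RPKM in hrde-1, against 12.9, 66.8 and 83.5 RPKM in WT on OP50, gfp RNAi and oma-1 RNAi. Its Pol II was also high in WT alone, with 14.7 and 15.4 RPKM in the triple mutant and 14.5 and 13.5 RPKM in hrde-1, against 69.6 and 86.4 RPKM in WT. III 8858 was another, with H3K9me3 of 7.80, 6.23 and 7.65 RPKM in the triple mutant and 16.3, 11.8 and 23.2 RPKM in hrde-1, against 15.0, 45.2 and 63.5 RPKM in WT. At 14 other windows both RNAi feedings were at least 2-fold below OP50 in WT. Both counts come from the libraries that chose the windows and have no share over all windows beside them.

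As a description, and with the choice of the windows favoring high values in WT, 1058 of the 1159 windows (91.3%) had at least 2-fold lower mean H3K9me3 (scaled, RPKM + 1) in the triple mutant than in WT, 894 (77.1%) in met-2 set-25, 255 (22.0%) in set-32 and 181 (15.6%) in hrde-1. Of the 1058 windows in the triple mutant, mean Pol II was at least 2-fold above WT in 31 and at least 2-fold below WT in 45. These counts have no share over all windows beside them and cannot be read as particular to the windows. The median ratio of scaled H3K9me3 to WT in the same feeding was 0.194, 0.581 and 0.286 in the triple mutant on OP50, gfp RNAi and oma-1 RNAi, and 0.632, 1.50 and 0.879 in hrde-1, and in both strains it was highest against the WT library on gfp RNAi, the one with the weakest enrichment. Over the H3K9me3-rich windows the H3K9me3 ratios of the triple mutant were 0.251, 0.711 and 0.360 in the same order of feedings. The median ratio of Pol II to WT over the windows with both marks was 0.977 and 0.961 in the triple mutant and 0.972 and 0.880 in hrde-1 on gfp RNAi and oma-1 RNAi.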

How the data were processed

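H3K9me3 and Pol II (phosphorylated at serine 2 of the C-terminal repeats) were measured by ChIP-seq in 25 libraries of 5 strains. The authors aligned the reads to WS190 (ce6) with Bowtie 0.12.7 and used only alignments without mismatches, in which each of the N places that a read matched received 1/N of it. They deposited RPKM values of 1-kb windows, which depend on library depth, with no scaling to background and no correction by input. The deposited table also holds columns of the authors' own comparisons, which mark windows whose H3K9me3 depends on the HMTs, and these were not used. Columns were matched to samples through the library names that the study lists. The 5 input samples, H3K27me3 and RNA data were not analysed here.

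Of the windows, 506 that the authors marked as misannotated were dropped, as were 22 whose mean was under 3 RPKM over all 25 libraries. Each H3K9me3 library was scaled to its median over H3K9me3(-) windows (5th to 25th percentile of WT on OP50, 20139 windows), and Pol II was used with depth normalization only. Values in RPKM in the text are as deposited. Between 77.9% and 83.7% of the values in a library were whole reads within a tolerance of 0.1, so reads were not recovered and no count model was used, and the precision of a window rests on the reads given in the text. limma 3.58.1 in R 4.3.3 was fitted to log2(RPKM + 1) with the trend term and feeding as a block, over the 4 mutant strains (12 H3K9me3 and 8 Pol II libraries). The H3K9me3 fit had infinite prior degrees of freedom, so 1 spread was shared by windows of similar level. The residual degrees of freedom were 6 for H3K9me3 and 3 for Pol II. The fits were tested on simulated data. Other steps used scipy 1.17.1, matplotlib 3.10.9, pandas 2.3.3 and numpy 2.4.6 under Python 3.11.15.

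The windows, the lists and the tests were chosen with earlier results of these data known. Windows are named by a rule, which took the 6 highest in both marks, the 3 longest runs, the 3 largest falls and rises of each comparison among windows called and changed alike in every feeding, the windows next to each limit, and the 3 that ranked highest in H3K9me3 in the triple mutant, with 1 window at most for each run. V 10717, III 6566 and the windows where WT feedings or library names disagree were named after their values were seen. Alternatives were another pseudocount (0.1), no filter, other scalings, no feeding block, all 5 strains in the fit, stricter or per-library limits, and each library left out. Leaving out the run at the end of chromosome I was added after the data were seen.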

Additional observations from a re-analysis of the deposited data

How the results depend on the processing

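Of the 64 values of the shares under other settings, apart from those with a library left out, 55 stayed within 1.5 times the value reported. With depth normalization alone, the share of the 1159 windows with lower H3K9me3 was 45.0% (triple mutant) and 4.23% (set-32) against hrde-1, 0 (0 windows) for the triple mutant against met-2 set-25, and 21.4% for the triple mutant against set-32. Of all windows tested, 3.15%, 0.272%, 0.0221% and 0.854% were lower, in the same order. For the triple mutant against met-2 set-25 the share of the 1159 windows was 0.173% with all 5 strains in the fit and 1.73% with a pseudocount of 0.1. It was 0.568% with limits at the 95th and 90th percentiles. Those stricter limits, which left 176 windows, gave Pol II calls at 14.2% (triple mutant) and 18.8% (met-2 set-25) of windows. The cause of these moves was not tested.

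When each library or feeding was left out in turn, the share with lower H3K9me3 ran between 71.1% and 80.1% (triple mutant against hrde-1), 49.2% and 61.9% (met-2 set-25 against hrde-1), 3.28% and 16.3% (set-32 against hrde-1), 0 and 2.67% (triple mutant against met-2 set-25) and 39.0% and 72.2% (triple mutant against set-32). Pol II calls ran between 4.06% and 13.0% (triple mutant), 5.95% and 14.7% (met-2 set-25), and 10.6% and 15.2% (set-32). An arm left with 1 library is assumed to vary like the others. The shares of all windows in the fits with a library left out are not given here. These ranges therefore cannot be set against all windows. Without the feeding block (replicate block) the shares were 75.9%, 56.1%, 8.97%, 0.863% and 56.0% for H3K9me3 and 6.90%, 8.28% and 10.8% for Pol II, in the same order. Deviations of libraries with the same feeding correlated between -0.15 and 0.21 for H3K9me3 and between 0.08 and 0.50 for Pol II. A check of input at the windows was planned and not run, since input was not used here. Precision is limited by 1 library for each strain, mark and feeding and by windows of 26.0 reads in the shallowest H3K9me3 library.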
